A study of Homo sapiens with 8 samples.

Results

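The HOX genes were measured in 5 human cancer cell lines on 8 two-colour arrays. Members were all gene names of the array design that consist of HOX, a cluster letter from A to D and a number. This rule, which used no measured value, found 39 genes with 48 probes among 43317 gene names with 58201 probes. The lines were PC3 (prostate cancer), SK-MES-1 (lung squamous cell carcinoma), SW1990 and PANC1 (both pancreatic cancer) and MDA-MB-231 (breast cancer). On every array, RNA of untransfected cells of the line (mock, Cy3) was hybridised together with RNA of the same line after transfection with Lipofectamine RNAiMAX (Cy5), and dyes were not swapped. PC3 cells received the siRNA si-PIR-2 or si-PIR-3 against PIR, and SK-MES-1 cells received miR-144-5p or miR-144-3p. SW1990 and MDA-MB-231 cells each received miR-204-5p, and PANC1 cells received miR-130-5p or miR-130-3p. There was 1 array for each line and transfected RNA, and the sources used here do not say whether the RNAs came from separate cultures, so p-values measure the spread between these samples, which may be technical.

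HOX genes encode homeodomain transcription factors that give cells their position along the body axis of the embryo. They lie in 4 clusters, and within a cluster the genes at the 3′ end (low numbers) are used early and towards the head, those at the 5′ end (high numbers) late and towards the tail and the limb and genital buds. Genes of the same number in different clusters are paralogues, many adult epithelia keep part of the code of the region they came from, and tumours often change it. In the array annotation on hg19, the HOXA probes lie on chromosome 7, HOXB on 17, HOXC on 12 and HOXD on 2.

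A few sequences are given first, since detection and transfection are described by them below. For genes seen in only 1 or 2 mock lines, these are the 60 bases upstream of the RefSeq start on GRCh38.p14, 5′ to 3′ on the gene's strand, with each CG in capitals.
HOXA11 (chr7:27185233-27185292, minus strand): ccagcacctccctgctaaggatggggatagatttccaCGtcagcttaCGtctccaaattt
HOXD1 (chr2:176188608-176188667, plus strand): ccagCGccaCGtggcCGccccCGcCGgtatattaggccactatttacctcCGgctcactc
HOXD8 (chr2:176129645-176129704, plus strand): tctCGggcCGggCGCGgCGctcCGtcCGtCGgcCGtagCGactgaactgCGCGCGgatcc
HOXD10 (chr2:176116718-176116777, plus strand): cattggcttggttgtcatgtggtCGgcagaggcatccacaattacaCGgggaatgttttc
For HOXA13, which was above background in every line but brightest in PC3, the same stretch was as follows.
HOXA13 (chr7:27200092-27200151, minus strand): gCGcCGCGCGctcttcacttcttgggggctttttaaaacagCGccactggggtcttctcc
The 60 bases held 2 CG in HOXA11, 6 in HOXD1, 13 in HOXD8, 2 in HOXD10 and 5 in HOXA13. RefSeq windows of 300 bases around the start were at hand for 20 HOX genes (27 windows), with a median of 22 CG against 14 over all 35116 windows. The letters TATAAA, searched on both strands with no other motif, stood in 5 of the 27 HOX windows (18.5%), those of HOXA3, HOXA9, HOXA10 and HOXD13, and in 11.5% of all windows. DNA methylation was not measured.

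The transfected miRNAs whose mature sequence the label fixes were, from RefSeq, with the seed (bases 2 to 8) in capitals, as follows.
miR-144-3p: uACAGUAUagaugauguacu
miR-144-5p: gGAUAUCAucauauacuguaag
miR-204-5p: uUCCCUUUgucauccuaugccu
These 3 seeds differ from each other. The labels name miR-130-5p and miR-130-3p without saying which family member was used, and no sequence is given for them.

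Signals were normalised between arrays and are on a linear scale, and a probe counts as detected where the scanner software marked it as well above background. In the counts by gene, a gene counts as detected in a line where a probe of it was detected on all mock arrays of the line. Signals of different probes depend on the probe as well as on the RNA, so levels are compared between lines and not between genes. Of all probes, 41.4% to 46.4% were detected in mock channels and 49.8% to 54.6% in transfected channels, no spot was saturated, and all arrays came from 1 slide and 1 scan time. Between both mock channels of a line, the log2 difference over all detected probes had an SD of 0.202 in PC3, 0.194 in SK-MES-1 and 0.179 in PANC1, and no detected HOX probe differed by more than 0.665. Lineage markers were checked in the mock RNA. KLK2 and KLK3 were not detected in PC3, and TP63 (47.2) was detected in SK-MES-1 alone while KRT14 was higher in SW1990 (2072) than in SK-MES-1 (88.5). Neither pancreatic line had PDX1 or PTF1A above background, while MUC1 was detected in every line and was highest in SW1990 (11104) and PANC1 (863). In MDA-MB-231 ESR1 was just above it (33.6) and PGR was not.

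PANC1 had the most HOX genes in the mock RNA and MDA-MB-231 the fewest. On all mock arrays of the line, 26 of 39 HOX genes were detected in PANC1 (66.7%), 24 in SW1990 (61.5%), 22 in PC3 (56.4%), 21 in SK-MES-1 (53.8%) and 12 in MDA-MB-231 (30.8%). Over all gene names the same share was 41.9% in PANC1, 44.1% in SW1990, 44.2% in PC3, 45.6% in SK-MES-1 and 44.9% in MDA-MB-231. The order of the lines by HOX genes was therefore not that by all genes, in which PANC1 was the lowest. RNA came from whole cultures, so fewer expressing cells and less RNA per cell cannot be told apart.

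The clusters split the lines in different ways. Of 11 HOXA genes, 10 were detected in PC3 and in SW1990, 7 in PANC1, 6 in SK-MES-1 and 3 in MDA-MB-231. Of 10 HOXB genes, 9 were detected in SW1990 and in PANC1, 8 in SK-MES-1, 6 in PC3 and 3 in MDA-MB-231. All 9 HOXC genes were detected in PANC1, against 5 in PC3 and SW1990 and 4 in SK-MES-1 and MDA-MB-231. HOXD was the least detected cluster in every line, with 3 of 9 genes in SK-MES-1, 2 in MDA-MB-231, 1 in PC3 and PANC1 and 0 in SW1990. Of the 15 genes of paralogue groups 4 to 8, 13 were detected in SW1990, 11 in SK-MES-1 and PANC1, 9 in PC3 and 5 in MDA-MB-231. Of the 16 genes of groups 9 to 13, the counts were 10 in PANC1, 8 in PC3, 7 in SK-MES-1 and SW1990 and 5 in MDA-MB-231, and of the 8 genes of groups 1 to 3 they were 5 in PC3 and PANC1, 4 in SW1990, 3 in SK-MES-1 and 2 in MDA-MB-231.

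**Figure D1:**
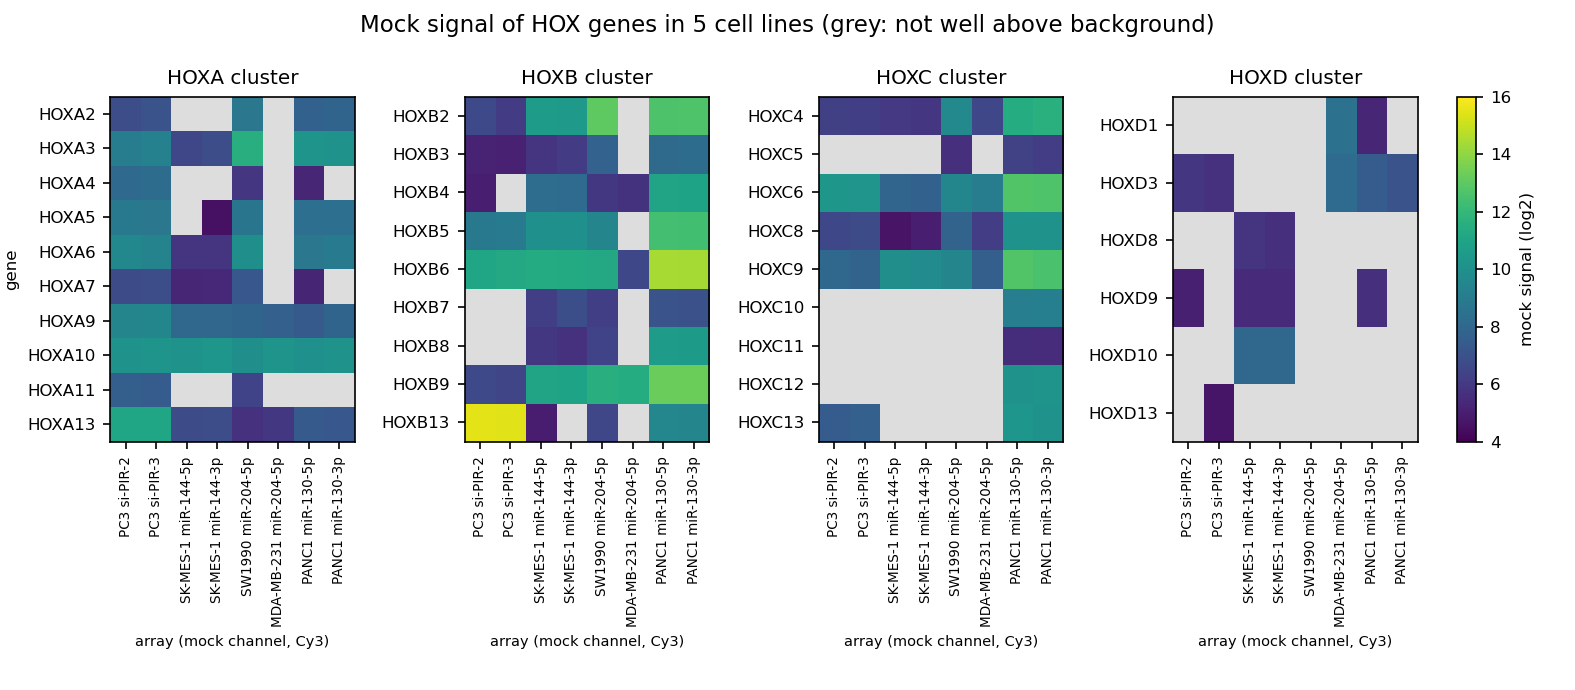
Mock (Cy3) signal on the log2 scale, by colour, of the 34 HOX genes detected on at least 1 mock array (rows, by cluster) on 8 arrays (columns, named by line and transfected RNA), with grey for a brightest probe not well above background. All 9 HOXC rows are coloured in PANC1, HOXA2 to HOXA7 are grey in MDA-MB-231, and most of the HOXD panel is grey.

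By gene, 9 members were detected in the mock RNA of all 5 lines, namely HOXA9, HOXA10, HOXA13, HOXB6, HOXB9, HOXC4, HOXC6, HOXC8 and HOXC9. Outside PC3, HOXA9 and HOXA10 counted through 1 probe each, and their other probes, given below, did not pass this rule. The HOXA counts of those lines rest on these single probes for both genes. In 4 lines were HOXA3, HOXA6, HOXB2, HOXB3, HOXB4 and HOXB5, and in 3 lines HOXA2, HOXA5, HOXA7, HOXB7, HOXB8, HOXB13 and HOXD3. In 2 lines were HOXA4, HOXA11, HOXC5 and HOXC13, and in 1 line HOXC10, HOXC11, HOXC12, HOXD1, HOXD8, HOXD9 and HOXD10. The other 6 were in no line detected on all mock arrays. Of these, HOXD13, a digit and genital bud gene, was above background on 1 of 2 mock arrays of PC3 (25.5), and HOXD11 only in the transfected channels of SK-MES-1 (29.9 and 26.9), where more probes pass in general.

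Differences between lines were tested in limma over 13 RNA samples, that is 5 mock samples (the arrays of a line averaged) and 8 transfected samples, with a term for the channel and Benjamini-Hochberg adjustment over 27214 genes detected in at least 2 of 16 channels. The residual spread was that between the mock and transfected samples of a line, so it includes effects of the transfected RNAs. In SW1990 and MDA-MB-231 both samples came from 1 array, so that array and line cannot be told apart there. Of the 39 HOX genes, 35 entered the test. The F-test over the lines called 34 of the 35, where it called 77.6% of all genes, and a member that entered through 1 bright line had to differ. Of the 12 HOX genes detected in at least 1 channel of every line, 11 were called, where the background was 80.2%. Most genes on the array therefore differed between these lines, and the size and the line carry more than the count.

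Against the mean of the other 4 lines, PANC1 had 25 HOX genes higher (background 24.8%) and 3 lower (24.1%). MDA-MB-231 was the opposite, with 3 higher (background 18.9%) and 27 lower (19.1%), of which 18 were in no channel of the line above background. PC3 had 13 higher (background 22.7%) and 16 lower (23.2%), and SW1990 had 14 higher (20.1%) and 12 lower (22.2%). SK-MES-1 had 9 higher (25.0%) and 19 lower (31.2%). Of the lower genes, 8 in PC3, 9 in SW1990, 8 in SK-MES-1 and 2 in PANC1 were in no channel of the line above background. HOXC11, called higher in SW1990, was not above background there either. The median log2 difference over the 35 HOX genes was 2.60 in PANC1 and −1.94 in MDA-MB-231, against 0.02 and −0.01 over all genes tested. In PC3 it was −0.13 (all genes −0.01), in SW1990 0.28 (all genes −0.03) and in SK-MES-1 −0.96 (all genes −0.15). Since each line is set against the mean of the others on the log scale, 1 very dim line lifts the contrasts of the others. HOXB6 was thus called higher in PC3 (0.63 ± 0.18, SE, limma adjusted p = 0.017). Its fitted log2 level in PC3 (11.46) was close to SK-MES-1 (11.14) and SW1990 (11.34), below PANC1 (14.55) and above MDA-MB-231 (6.29). In the mock RNA alone, its PC3 signal lay below that of SK-MES-1 and PANC1.

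**Figure D2:**
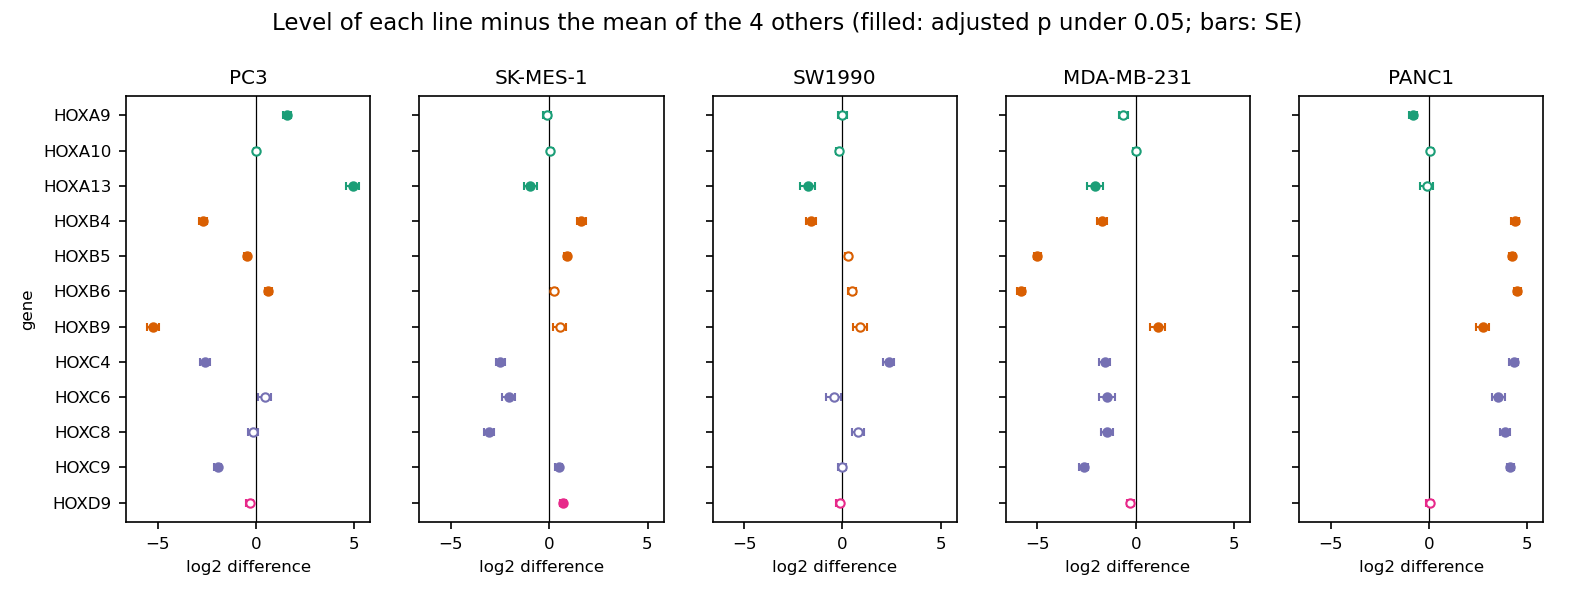
Log2 difference (x axis) of each line from the mean of the 4 other lines, with SE bars, for the 12 HOX genes detected in at least 1 channel of every line (HOXA green, HOXB orange, HOXC purple, HOXD pink), filled where the limma adjusted p was under 0.05. PANC1 lies to the right for HOXB4 to HOXC9, MDA-MB-231 to the left for HOXB6 (−5.83), and HOXA10 sits at 0 in all lines.

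HOXA2, HOXA3, HOXA5 and HOXA6 were brighter in SW1990, PC3 and PANC1 than in SK-MES-1, and were not above background in MDA-MB-231. HOXA4 and HOXA7 were each above background on only 1 mock array of PANC1. HOXA2, a hindbrain and branchial arch gene, had mock signals of 115 and 135 on the PC3 arrays, 438 in SW1990 and 209 and 231 in PANC1, and was not detected in SK-MES-1 (13.4 and 6.61) or MDA-MB-231 (5.39). Its SW1990 signal was at least 20.9-fold that of SK-MES-1 and at least 16.3-fold that of MDA-MB-231, these bounds being set by the lowest detected signal of the dim arrays. HOXA3, which is needed for thymus and parathyroid, had mock signals of 551 and 613 in PC3, 94.9 and 114 in SK-MES-1, 3034 in SW1990, 1167 and 1130.3 in PANC1 and 4.77, not above background, in MDA-MB-231. The order of its lines was SW1990, PANC1, PC3, SK-MES-1 and MDA-MB-231 with no overlap of arrays, and SW1990 was 2.64-fold above PANC1, 5.22-fold above PC3, 29.2-fold above SK-MES-1 and at least 113-fold above MDA-MB-231.

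HOXA5, a regulator of lung development, showed a different order at the top. Its mock signals were 466 and 435 in PC3, 408 in SW1990 and 335 and 331 in PANC1, so that PC3 and SW1990 differed by only 1.10-fold. In SK-MES-1 it was 19.5 and 23.6, the second of which was above background, and in MDA-MB-231 it was 5.27, not above background. HOXA6 was 781 and 666 in PC3, 1014 in SW1990, 431 and 492 in PANC1, 56.8 and 57.6 in SK-MES-1 and 4.88, not above background, in MDA-MB-231. Its SW1990 signal was 17.7-fold that of SK-MES-1 and at least 37.7-fold that of MDA-MB-231, and a second probe of HOXA6 was also highest in SW1990 (357) and not detected in SK-MES-1 or MDA-MB-231. HOXA7 was 112 and 114 in PC3, 152 in SW1990, 38.7 and 41.3 in SK-MES-1, 38.1 and 43.8 in PANC1, and 4.84, not above background, in MDA-MB-231. SK-MES-1 and PANC1 overlapped for HOXA7, and the second PANC1 array was not above background. HOXA4 was brightest in PC3 (272 and 301), at 4.72-fold the level of SW1990 (60.6), and was not detected in SK-MES-1 or MDA-MB-231. Its PANC1 mean was 31.2, with only 1 array above background, and PC3 was 9.15-fold higher.

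At the 5′ end of the cluster, PC3 stood apart. HOXA13, a gene of the hindgut, limb and genitourinary tract, had mock signals of 2126 and 2204 in PC3, 106 and 116 in SK-MES-1, 52.5 in SW1990, 61.2 in MDA-MB-231 and 169.6 and 155 in PANC1. PC3 lay above all other lines with no overlap, 13.3-fold above PANC1, 19.5-fold above SK-MES-1, 35.4-fold above MDA-MB-231 and 41.2-fold above SW1990, and its contrast was 4.91 ± 0.34 on the log2 scale (SE, limma adjusted p = 1.8e-06). HOXA11, which acts in kidney, limb and uterus, was detected in the mock RNA of PC3 (201 and 177) and SW1990 (85.9) and of no other line, with PC3 2.20-fold above SW1990.

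HOXA9 and HOXA10, best known for blood stem cells and leukaemia and, for HOXA10, for the uterus, gave different answers by probe. The brightest HOXA9 probe over all arrays, A_33_P3416231 (hg19 chr7:27203145-27203204), was detected in every line. Its mock signals were 709 and 723 in PC3, 269.7 and 246 in SK-MES-1, 233 in SW1990, 208 in MDA-MB-231 and 170.1 and 237 in PANC1. PC3 was higher than the rest by 1.56 ± 0.20 on the log2 scale (SE, limma adjusted p = 0.00014), and SW1990 and MDA-MB-231 lay between both PANC1 arrays, with SK-MES-1 just above.

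The other 3 HOXA9 probes were bright in PC3 and at or near background in the mock RNA of the other lines. A_23_P500998 (hg19 chr7:27202588-27202647) read 5150.2 and 5276 in PC3, 48.6 and 28.4 in PANC1 (only the first above background) and between 4.12 and 4.17 in SK-MES-1, SW1990 and MDA-MB-231. PC3 was 140-fold above PANC1 and at least 194-fold above MDA-MB-231 by this probe. A_22_P00023586 (hg19 chr7:27202258-27202317) read 1972 and 2091 in PC3 and was not detected in another mock sample, at least 68.3-fold below. A_22_P00007805 read 740.5 and 788 in PC3 and was likewise not detected elsewhere, at least 25.7-fold below.
A_22_P00007805 (HOXA9, hg19 chr7:27203345-27203404): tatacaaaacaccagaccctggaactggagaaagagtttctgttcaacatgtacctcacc
This probe sequence has no stop in any of the 3 forward frames.

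HOXA10 was the 1 HOX gene in the test with no difference called between lines, by its brightest probe, and its other probe had another pattern. A_33_P3288649 read 1160.1 and 1166 in PC3, 1136 and 1259.8 in SK-MES-1, 1023 in SW1990, 1181 in MDA-MB-231 and 1049 and 1129.9 in PANC1. All lines overlapped or lay within 1.17-fold of each other (limma F-test, adjusted p = 0.88). A_24_P77904 (hg19 chr7:27211235-27211294) read 321 and 349 in PC3 and between 3.89 and 16.2, not above background, in the mock RNA of the other lines. PC3 was at least 11.3-fold above PANC1 and at least 15.9-fold above SK-MES-1 by this probe. The probe with the flat signal is given here with each CG in capitals.
A_33_P3288649 (HOXA10, hg19 chr7:27211789-27213023): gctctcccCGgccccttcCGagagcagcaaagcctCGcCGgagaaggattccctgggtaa
Its 60 bases span 1235 bases of the genome in the annotation, and its GC content is 65.0%, against 36.7% for A_24_P77904. The probes of a gene did not agree here, and the part of probe composition or of transcript variants was not tested.

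**Figure D3:**
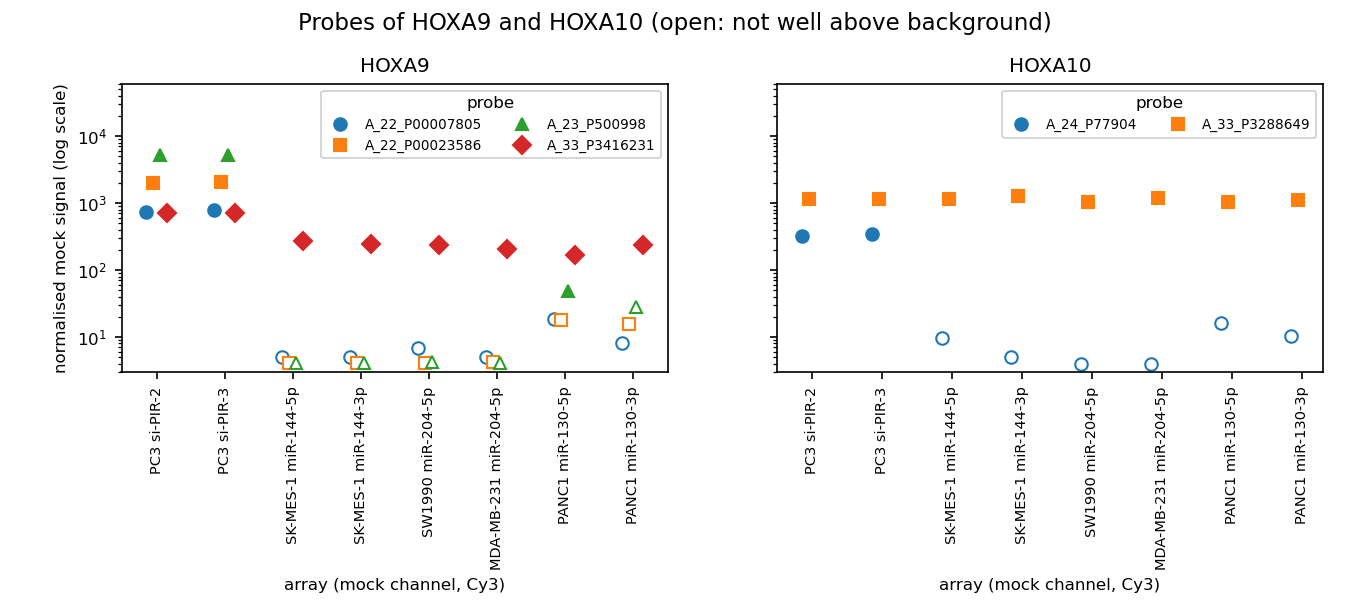
Normalised mock signal (log y axis) of the 4 HOXA9 probes and the 2 HOXA10 probes on each of the 8 arrays (x axis), with open symbols where not well above background. In PC3 all 6 probes are filled, while outside PC3 only A_33_P3416231 and A_33_P3288649 are filled throughout.

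In the HOXB cluster the mock signals of HOXB2 to HOXB9 were lower in PC3 and in MDA-MB-231 than in PANC1, and HOXB13 had another order. HOXB2, which acts in the hindbrain, had mock signals of 98.9 and 71 in PC3, 1572 and 1417 in SK-MES-1, 8262 in SW1990, 6502 and 6545 in PANC1 and 5.36, not above background, in MDA-MB-231. SW1990 was 1.27-fold above PANC1, 98.6-fold above PC3 and at least 307-fold above MDA-MB-231. A second HOXB2 probe gave the same order for the bright lines, with 654 in SW1990, 614 and 624 in PANC1 and 246 and 252 in SK-MES-1, and was not detected in PC3 or MDA-MB-231. HOXB3 was 285 and 299 in PANC1, 222 in SW1990, 56.3 and 67.5 in SK-MES-1, 36.8 and 34.8 in PC3 and 18.5, not above background, in MDA-MB-231.

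HOXB4 to HOXB6 were highest in PANC1. HOXB4, known for expanding blood stem cells, was 2036 and 2022 in PANC1, 315 and 296 in SK-MES-1, 61.5 in SW1990, 54.3 in MDA-MB-231 and 32.4 and 22.3 in PC3, the last not above background, and its PANC1 contrast was 4.38 ± 0.22 (SE, log2, limma adjusted p = 1.6e-07). HOXB5 was 5533 and 5216 in PANC1, 1044 and 1048 in SK-MES-1, 697 in SW1990, 458 and 490.1 in PC3 and 29.6, not above background, in MDA-MB-231. The lines did not overlap for HOXB5, and PANC1 was 5.14-fold above SK-MES-1 and at least 182-fold above MDA-MB-231.

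HOXB6 was 22054 and 21668 in PANC1, 2189 and 2385 in PC3, 2691 and 2565 in SK-MES-1, 2417 in SW1990 and 97.2 in MDA-MB-231. This gave 3 levels, with PC3, SK-MES-1 and SW1990 within 1.15-fold of one another by their means, PANC1 8.32-fold to 9.57-fold above them and 225-fold above MDA-MB-231. The contrasts of HOXB6 were 4.49 ± 0.18 in PANC1 and −5.83 ± 0.21 in MDA-MB-231 (SE, log2, limma adjusted p = 3.7e-08 and 3.2e-08).

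HOXB7 and HOXB8 were not detected in the mock RNA of PC3 or MDA-MB-231 (HOXB8 5.09 and 5.04 in PC3 and 8.62 in MDA-MB-231). HOXB7 was 134 and 125 in PANC1, 73.8 and 117 in SK-MES-1 and 75.4 in SW1990, with SW1990 inside the range of SK-MES-1. HOXB8, a factor of myeloid progenitors, was 1519.8 and 1504 in PANC1, 84.9 in SW1990 and 61.7 and 52.8 in SK-MES-1, so that PANC1 was 17.8-fold above SW1990 and 26.5-fold above SK-MES-1.

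HOXB9, a thoracic patterning gene, was the 1 member of its cluster with a higher level in MDA-MB-231 than in the mean of the other lines. Its mock signals were 9815 and 10093 in PANC1, 2977 in SW1990, 2790.1 in MDA-MB-231, 2028 and 2002 in SK-MES-1 and 101 and 90.6 in PC3. PC3 was the low line here, 29.2-fold below MDA-MB-231 and 104-fold below PANC1, with a contrast of −5.24 ± 0.31 (SE, log2, limma adjusted p = 6.3e-07). The contrasts were 2.72 ± 0.31 in PANC1 (adjusted p = 5.7e-05) and 1.11 ± 0.37 in MDA-MB-231 (adjusted p = 0.037), while those of SK-MES-1 and SW1990 did not pass.

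HOXB13, a gene of prostate development that lies apart from the rest of the cluster, was brightest in PC3. Its probe (hg19 chr17:46802144-46802203) read 46713 and 44932 in the mock RNA of PC3, 741 and 697 in PANC1, 94.3 in SW1990, 30.9 and 22.9 in SK-MES-1 (only the first above background) and 3.88, not above background, in MDA-MB-231. PC3 was 63.8-fold above PANC1, 486-fold above SW1990 and at least 1702-fold above MDA-MB-231 (limma adjusted p of the PC3 contrast 4.3e-09). PC3 thus combined the highest HOXB13 with the lowest HOXB9 of the 5 lines.

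The HOXC cluster was highest in PANC1 for each of its 9 genes. HOXC4 was 2770.3 and 3134 in PANC1, 809 in SW1990, 92.7 in MDA-MB-231, 78.6 and 75.8 in PC3 and 63.1 and 59.8 in SK-MES-1, with contrasts of 4.30 ± 0.24 in PANC1 and 2.35 ± 0.28 in SW1990 (SE, log2, limma adjusted p = 3.3e-07 and 9.5e-05). HOXC5 was detected in PANC1 (83.1 and 72.2) and SW1990 (51.2) alone, and HOXC4 and HOXC5 share a start window in RefSeq. HOXC6 was 6867 and 6584 in PANC1, 1309 and 1227 in PC3, 727 in SW1990, 528 in MDA-MB-231 and 245 and 211 in SK-MES-1. The lines did not overlap for HOXC6, and PANC1 was 5.31-fold above PC3 and 29.6-fold above SK-MES-1.

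HOXC8, which patterns the thorax and its motor neurons, was 1138 and 1161 in PANC1, 223 in SW1990, 96.8 and 108 in PC3, 73.3 in MDA-MB-231 and 24.4 and 32.6 in SK-MES-1. Its contrasts were 3.86 ± 0.26 in PANC1 and −3.06 ± 0.26 in SK-MES-1 (SE, log2, limma adjusted p = 1.3e-06 and 6.3e-06), so SK-MES-1 was its lowest line. HOXC9 had another order, with 6782 and 6084 in PANC1, 973 and 874 in SK-MES-1, 698 in SW1990, 259 and 227 in PC3 and 197 in MDA-MB-231. Its PANC1 contrast was 4.12 ± 0.18 and its MDA-MB-231 contrast −2.65 ± 0.21 (SE, log2, limma adjusted p = 5.7e-08 and 7.0e-06).

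The 5′ HOXC genes were close to being on in PANC1 and at background elsewhere. HOXC10, a gene of lumbar motor neurons, read 570.1 and 578 in PANC1 and, not above background, 6.57 and 6.21 in PC3, 5.04 and 5.10 in SK-MES-1, 7.09 in SW1990 and 5.21 in MDA-MB-231, and was at least 21.3-fold to at least 27.3-fold higher in PANC1. HOXC11 read 47.7 and 45.6 in PANC1 and, not above background, 3.74 and 3.75 in PC3, 3.76 and 3.75 in SK-MES-1, 10.8 in SW1990 and 3.74 in MDA-MB-231, which gave bounds of only 1.73-fold to 2.22-fold. HOXC12 read 1121 and 1195 in PANC1 and, not above background, 5.09 on both PC3 arrays, 5.09 and 5.05 in SK-MES-1, 5.30 in SW1990 and 5.35 in MDA-MB-231, with PANC1 at least 43.0-fold to at least 55.1-fold higher. HOXC13, a regulator of hair and nail keratins, was the exception, with 1276 and 1131 in PANC1 but also 181 and 208 in PC3. It was not above background in SK-MES-1 (9.05 and 4.88), SW1990 (6.82) or MDA-MB-231 (7.42), and PANC1 was 6.19-fold above PC3 and at least 44.6-fold above MDA-MB-231.

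In HOXD, the mean mock signal of HOXD8, HOXD9 and HOXD10 was highest in SK-MES-1 and that of HOXD1 and HOXD3 in MDA-MB-231. HOXD8 and HOXD10, whose upstream bases are given above, were seen in SK-MES-1. HOXD8 read 58.6 and 49.8 there and was at least 1.82-fold to at least 2.26-fold higher than elsewhere, and HOXD10, which acts in the hindlimb, read 269 and 255 and was at least 8.28-fold to at least 10.9-fold higher. HOXD9, between them in the cluster, was detected on both SK-MES-1 arrays (44 and 44.9) and on 1 of 2 arrays of PC3 (32.7) and PANC1 (50.2). Its SK-MES-1 contrast was 0.70 ± 0.16 (SE, log2, limma adjusted p = 0.0044), and PANC1 overlapped SK-MES-1. A second HOXD9 probe, A_33_P3333238, was above background in 0 of 16 channels.

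HOXD1 and HOXD3, at the other end of the cluster, were highest in MDA-MB-231, the line with the fewest HOX genes. HOXD1 read 370.1 in MDA-MB-231 and 38.8 and 28.9 in PANC1 (only the first above background), and was not detected in the mock RNA of PC3, SK-MES-1 or SW1990, at least 13.9-fold below MDA-MB-231. HOXD3 read 291 in MDA-MB-231, 179.9 and 133 in PANC1 and 58.9 and 52.7 in PC3, and was not detected in SK-MES-1 (19.2 and 12) or SW1990 (6.68). MDA-MB-231 was 1.88-fold above PANC1 and 5.22-fold above PC3 for HOXD3, and both genes were called higher in MDA-MB-231 (limma adjusted p = 1.5e-07 for HOXD1 and 8.0e-05 for HOXD3). A second HOXD3 probe, A_32_P211117, was above background in 1 of 16 channels, the transfected channel of miR-130-3p in PANC1.

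Transcripts read from within the clusters that do not code for protein also differed between lines, and all 12 on the array were called by the F-test (background 77.6%), among them transcripts detected in 1 line, which had to differ. PANC1 had 9 of the 12 higher than the other lines (background 24.8%) and MDA-MB-231 had 9 lower (19.1%). HOTTIP, next to HOXA13, was detected in PC3 alone (165), and HOXA11-AS was highest in PC3 (2455), the line with the highest HOXA13 and HOXA11. HOTAIRM1, in the HOXA cluster, was 6381 in PANC1, 2027 in PC3 and 186 in SW1990. HOXC-AS3 was detected in PANC1 alone (1404), as were HOXC10, HOXC11 and HOXC12, whereas HOTAIR, in the same cluster, was detected in all lines (39.5 to 66.9). HOXA-AS3 was detected in SW1990 alone (155). HOXD-AS2 was highest in PC3 (1996), then SK-MES-1 (1208) and PANC1 (875), although HOXD3 was the only HOXD gene detected on all mock arrays of PC3 and of PANC1. HAGLR, beside HOXD1, was detected in MDA-MB-231 (192) and PANC1 (112) only, the lines in which HOXD1 was detected on a mock array.

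Of the cofactors that bind DNA with HOX proteins (the PBX, MEIS and PKNOX families), 8 of 9 were tested and all 8 were called between lines, where 77.6% of all genes were. PANC1, the line with the most HOX genes, lacked MEIS1 above background in its mock RNA (5.50, against 47.4 to 96.7 elsewhere). All 13 Polycomb genes, which keep HOX clusters silent, were detected in every line, and 11 of them differed by the F-test, a share near that of all genes (77.6%). PANC1 had 2 of the 13 higher (background 24.8%) and 4 lower (24.1%), and MDA-MB-231 had 3 higher (18.9%) and 1 lower (19.1%). Of 9 Trithorax and demethylase genes, which oppose Polycomb, 7 differed, which is also near the share of all genes, and against the same backgrounds PANC1 had 4 higher and 1 lower and MDA-MB-231 2 higher and 0 lower. Of 10 upstream regulators and neighbours of the clusters, 7 were tested and 4 differed (background 77.6%), among them CDX2, an activator of HOX genes in the gut, which was 312 in PANC1 and 57.1 in SW1990 and not detected in the other lines.

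The second set of comparisons asked whether HOX genes moved with the transfected RNA. PIR, the target of both siRNAs, went from a signal of 7258 to 165 with si-PIR-2 and from 7640 to 395 with si-PIR-3 in PC3. No HOX gene was called in PC3 with limma over both arrays (0 of 26 tested, background 0%, that is 0 of 22503 genes), while 6 HOX genes and 2356 of all genes had an unadjusted p under 0.05. Both siRNAs served as replicates in this fit, so its spread includes any difference between them. On simulated data of this size the fit called 0% of genes changed by 3 on the log2 scale, so a count of 0 says little. Those 6 included HOXA3, which went from 551 to 864 with si-PIR-2 and from 613 to 941 with si-PIR-3, a mean log2 ratio of 0.63 ± 0.17 (SE, limma adjusted p = 0.44). HOXA11 went from 201 to 319 and from 177 to 305, and HOXD1 from below background (10.3 and 12) to 24.3 and 22.5. In the other direction were HOXA7 (112 to 79.8 and 114 to 66.3), HOXB2 (98.9 to 76.6 and 71 to 41.9) and HOXC4 (78.6 to 58.8 and 75.8 to 38.2). The adjusted p of these 6 ranged from 0.44 to 0.48.

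MiR-204-5p was the only RNA transfected into 2 lines, SW1990 and MDA-MB-231. None of 14 HOX genes was called over both arrays by limma (background 0%, 0 of 20563 genes). Both lines served as replicates in this fit, so its spread includes any difference between them. On simulated data of this size it called 0% of genes changed by 3 on the log2 scale, so a count of 0 says little. An unadjusted p under 0.05 was found for 1 HOX gene, HOXB8, and for 3925 of all genes. HOXB8 went from 84.9 to 175 in SW1990 and from 8.62, not above background, to 35.5 in MDA-MB-231. Over all transfections, with the arrays of a line averaged, limma called 0 of 12 HOX genes, against 66 of 18731 genes (0.352%), and 1 HOX gene and 3823 of all genes had an unadjusted p under 0.05. That gene was HOXA9 by its probe A_33_P3416231, with a mean log2 ratio of 0.38 ± 0.12 (SE, 5 lines, limma adjusted p = 0.16). Its transfected signal was above the mock signal on all arrays but that of miR-130-3p, as in SK-MES-1 with miR-144-5p (269.7 to 466). Because mock was always in Cy3, dye and transfection cannot be told apart in such a common shift.

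On single arrays, 183 ratios of HOX genes had both channels above background, and 7 of them lay beyond 1 on the log2 scale in either direction. These comparisons have 1 array each and no test. With si-PIR-2, 3 of 24 HOX genes were past this limit, against 4.63% of all genes. HOXB13 went from 46713 to 22487 (log2 ratio −1.05), HOXD3 from 58.9 to 22.7 (−1.38) and HOXC8 from 96.8 to 238 (1.30). With si-PIR-3 none of 23 HOX genes was past it (background 2.85%). HOXB13 went from 44932 to 36978 there (−0.28), HOXC8 stayed at −0.01 and HOXD3 went from 52.7 to 86.9 (0.72), so the siRNAs had opposite directions for HOXD3.

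In SK-MES-1 none of 22 HOX genes was past the limit with miR-144-5p (background 2.69%) or with miR-144-3p (1.71%). With miR-204-5p, HOXB8 was the 1 of 24 HOX genes past it in SW1990 (log2 ratio 1.05, background 2.70%), and none of 12 was in MDA-MB-231 (background 2.35%). With miR-130-5p in PANC1, 3 of 30 HOX genes were past the limit, where 10% of all genes were. HOXB9 went from 9815 to 4206 (−1.22), HOXA13 from 169.6 to 80.5 (−1.07) and HOXA7 from 38.1 to 94.8 (1.31). With miR-130-3p none of 26 was (background 3.95%), and there HOXB9 had a ratio of −0.17, HOXA13 of 0.64 and HOXA7 went from 43.8, not above background, to 62.4.

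Of these 7 ratios, 2 stayed past the limit after normexp background correction with an offset of 50, HOXB13 with si-PIR-2 (−1.08) and HOXB9 with miR-130-5p (−1.17). The offset shrinks ratios of dim spots by construction, and HOXC8 with si-PIR-2 came to 0.59, HOXA13 with miR-130-5p to −0.35, HOXB8 with miR-204-5p in SW1990 to 0.29, HOXD3 to −0.21 and HOXA7 to 0.17. Both that remained were bright in the mock channel (46713 and 9815), and the other 5 had mock signals of 38.1 to 169.6.

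**Figure D4:**
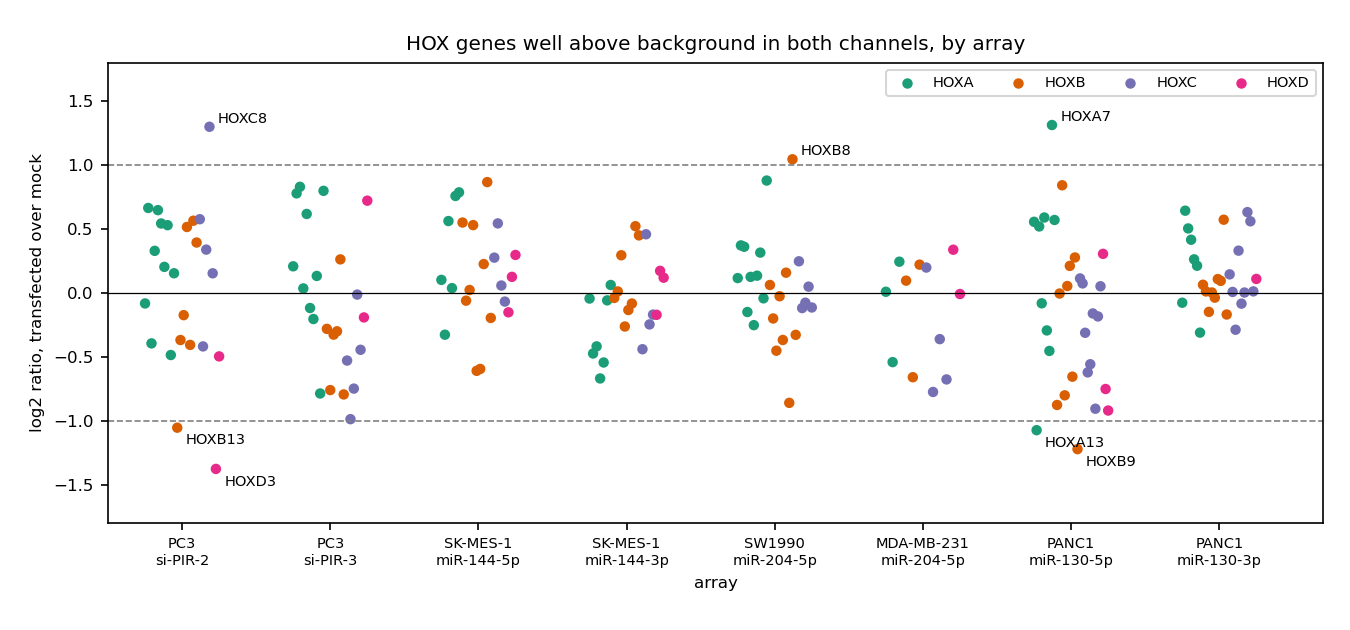
Log2 ratio of transfected over mock (y axis) for HOX genes well above background in both channels on each of the 8 arrays (x axis), 1 point per gene, coloured by cluster, with dashed lines at 1 and −1. Of 183 points, 7 lie beyond the dashed lines, 3 each with si-PIR-2 in PC3 and miR-130-5p in PANC1 and 1 with miR-204-5p in SW1990.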

How the data were processed

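Total RNA was extracted with Trizol and hybridised to Agilent Human GE 60K arrays, mock in Cy3 and transfected in Cy5. The authors deposited the scanner output of Agilent Feature Extraction 11.5.1.1, with the intensity of each of 62976 spots on a linear scale and, after the software's background subtraction and dye normalisation, a log10 ratio with Cy5 in the numerator. The deposited value table repeats these log10 ratios (largest difference 0). Ratios were turned to the log2 scale. A ratio over a signal at background is no measured fold.

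Levels were derived in R 4.3.3 (limma 3.58.1) from the processed signals, by quantile normalisation of the mean log2 intensity of both channels. Control and outlier spots were left out, spots of a probe were averaged, and the brightest probe stood for a gene. Gene names and hg19 coordinates are those of the array design. The lines were compared over 13 RNA samples with a channel term, and ratios were tested against 0, by lmFit and eBayes at an adjusted p of 0.05. Groups came from the labels. The fit of lines was tested on simulated data, where it called 54.5% of genes changed by 1 on the log2 scale, 82.3% by 2 and 98.6% by 3. Some genes are not reported here. Arrays hold no counts, and their number limits the precision.

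The HOX genes, the gene lists and the rules were chosen with earlier results of these data known. Mock values on every array are given for members detected in the mock RNA of all 5 lines, for the 12 with the smallest p between lines, and for those past 1 on the log2 scale on any array, and others were added after their values were seen. Alternatives were the background correction, the normalisation, the filter on dim probes, the probe for a gene, the samples and leaving out each array.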

Additional observations from a re-analysis of the deposited data

Results flagged for a closer look

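For miR-204-5p, the only RNA transfected into 2 lines, 5 of the 10 HOX genes detected in both channels of both arrays had opposite directions in SW1990 and MDA-MB-231. HOXB9 had a log2 ratio of −0.328 in SW1990 and 0.222 in MDA-MB-231. HOXA13 had 0.362 in SW1990 and −0.541 in MDA-MB-231. HOXB6 had 0.159 in SW1990 and −0.660 in MDA-MB-231. HOXB4 had −0.0259 in SW1990 and 0.0963 in MDA-MB-231, both smaller than the SD over all probes between repeat mock channels of the other lines (0.179 to 0.202). HOXC8 had 0.0494 in SW1990 and −0.362 in MDA-MB-231. The SW1990 values of HOXB6 and HOXC8 were also smaller than that SD. There was 1 array in each line, and the difference between the lines was not tested. The same share over all genes was not counted, so the 5 of 10 cannot be read as particular to HOX genes.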

How the results depend on the processing

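Of the 35 HOX genes tested between lines, 33 to 35 were called under the alternatives that kept the filter open, including leaving out each array (33 to 34). Where only genes detected in every line were tested, so that fewer members entered, 11 HOX genes were called, and calls summed over the 5 lines were 18 higher and 20 lower, against 64 and 77. With Cy5 channels only, which leaves fewer samples, 12860 of all genes were called between lines against 21111. No HOX gene was called in any ratio fit under any alternative run. Over all genes, miR-204-5p gave 1390 calls with normexp and loess and 5 with both channels above background, against 0. All transfections gave 246 and 153 by the same alternatives and 24 without a filter, against 66, and 5 to 42 when 1 array was left out, with 5 without the MDA-MB-231 array, 8 without SW1990, 9 without miR-130-3p, 26 without si-PIR-3, 31 without si-PIR-2, 32 without miR-144-5p, 34 without miR-130-5p and 42 without miR-144-3p. The cause was not tested. Of the 7 single ratios past 1, 2 were past it with normexp and 0 were past 1.5. With normexp the median of all genes in SK-MES-1 was −0.04 against −0.15.

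Each ratio pairs the transfected RNA with the mock RNA of its own array. Beyond this no paired analysis was possible because the labels give no replicate numbers that match arrays across groups. The slide and scan block was not run, since all arrays share 1 slide and 1 scan time. Leaving out 1 array of si-PIR or miR-204-5p leaves 1 array and no test. Levels below about 20 to 31 in the mock channels were under the dimmest detected probe, so low HOX genes have only an upper bound there.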
